A study of Homo sapiens with 3 samples.

Results

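TGOLN2, SURF4 and 8 other genes of cargo receptors and their partners in the secretory pathway were followed in cells labelled HGC-27. HGC-27 is an established line from an undifferentiated human gastric carcinoma. The 10 genes were matched by symbol among 50868 genes of the deposited expression table, and all 10 were found and reached a mean of at least 1 FPKM over the libraries, as did 11103 genes in all. FPKM is the fragment count of a gene scaled by its length and by the depth of the library. The set was selected on a measured value, the lower level of TGOLN2 and SURF4 with IRF3 siRNA, and was filled up with genes of related function, so those decreases are described here and support nothing further. The 3 groups were cells given a control siRNA (n.c.), cells given IRF3 siRNA (siIRF3) and cells given YAP siRNA (siYAP). All were at passage 6 and were taken 48 h after transfection. Each group had 1 library, so there is no spread between cultures and no test, and every interval below covers counting error only.

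Proteins made in the endoplasmic reticulum (ER) are loaded into vesicles by transmembrane cargo receptors, which release them in the ER-Golgi intermediate compartment or the Golgi and travel back. SURF4, the lectins LMAN1 and LMAN2 and the ERGIC proteins work at this early step, and the KDEL receptors catch escaped ER chaperones in the Golgi and return them. At the far side of the Golgi, in the trans-Golgi network, M6PR sends lysosomal enzymes marked with mannose 6-phosphate towards endosomes, and TGOLN2 (TGN46) cycles between that network and the cell surface.

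The short cytosolic tails that route these receptors are encoded at the very end of their reading frames, and the last 36 coding bases are shown because they set the members apart by route. Sequences are those of GENCODE release 29 transcripts, read 5′ to 3′ and ending with the stop codon, and capitals mark the codons of the known sorting or retrieval signal.
TGOLN2: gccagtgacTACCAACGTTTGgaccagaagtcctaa
M6PR: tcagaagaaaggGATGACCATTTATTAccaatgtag
SURF4: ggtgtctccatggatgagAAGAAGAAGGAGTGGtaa
LMAN1: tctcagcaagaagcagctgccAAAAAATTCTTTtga
LMAN2: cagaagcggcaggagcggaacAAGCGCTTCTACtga
KDELR1: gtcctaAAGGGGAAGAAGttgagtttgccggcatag
KDELR2: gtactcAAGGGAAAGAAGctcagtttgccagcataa
KDELR3: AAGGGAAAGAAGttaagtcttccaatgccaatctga
TGOLN2 carries a tyrosine-based signal of the trans-Golgi network and endosomes, and M6PR an acidic dileucine signal read by GGA adaptors. SURF4 and the KDEL receptors have lysine-rich tails, and LMAN1 ends in dilysine and diphenylalanine. Lysine signals of this kind are bound by the COPI coat. LMAN2 ends in a basic and aromatic tail. The coding sequences of KDELR1 and KDELR2 were identical at 479 of 639 aligned bases (75%), KDELR2 and KDELR3 at 463 of 639 (72.5%).

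Depth was even, with 13949401 counts for the control, 14941556 for siIRF3 and 14385959 for siYAP. The count ratio of YAP1 with YAP siRNA to control was 0.380 (95% counting interval 0.334 to 0.431), while that of IRF3 with IRF3 siRNA was 0.818 (0.732 to 0.915), from 597 against 681 counts, so the targeted gene checks the siIRF3 label only weakly. IRF3 shares exon sequence with BCL2L12, and YAP1 was also lower in siIRF3, at a count ratio of 0.608 (0.546 to 0.677). All 5 epithelial markers examined (among them CDH1 and EPCAM) were below 1 FPKM, and the 5 gastric markers had no count in the control, which allows up to 3 counts each. The mesenchymal VIM and the fibroblast collagen COL3A1 stood at 511 and 561 FPKM there, SPARC at 59.5 and FN1 at 9.33 FPKM, while mesenchymal CDH2 was near 0 with 5 counts. Summed fibroblast markers were 868 FPKM in the control, 741 in siIRF3 and 779 in siYAP, and their part in the results was not tested. All 5 of them reached a mean of 1 FPKM, among them COL1A1 at 266 FPKM in the control. Whether cells with these marker levels match the HGC-27 label was not tested.

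The length behind the deposited FPKM bears on how the members rank. For 87.8% of 11072 genes kept, and for 9 of the 10 members, that length was within 0.5% of the sum of all distinct annotated exons, in which overlapping alternative exons are counted more than once. For TGOLN2 it was 20262 bases, longer than the gene itself, where the merged exons span 7081 bases. Ratios of 1 gene between libraries are not altered by this, apart from the effect of a pseudocount, but levels of different genes are. Levels are therefore given also per merged exon length, computed from the counts.

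On merged exon length SURF4 had the highest level of the 10 in the control at 165 FPKM, followed by KDELR2 at 139, LMAN2 at 123 and KDELR1 at 95.9 FPKM. A gap separated these from TGOLN2 at 28.0, LMAN1 at 17.9, KDELR3 at 15.4, M6PR at 12.8, MCFD2 at 12.8 and ERGIC1 at 10.2 FPKM. The deposited FPKM put KDELR2 first at 82.1 and M6PR last at 4.55, with TGOLN2 at 9.80, below LMAN1 and KDELR3. With IRF3 siRNA the order differed on both scales: TGOLN2 was the lowest of the 10, at 3.62 FPKM on merged length and 1.27 FPKM as deposited. LMAN2 was then the highest, at 146 and 75.4 FPKM, ahead of KDELR2 and KDELR1, and SURF4 stood behind these.

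**Figure D1:**
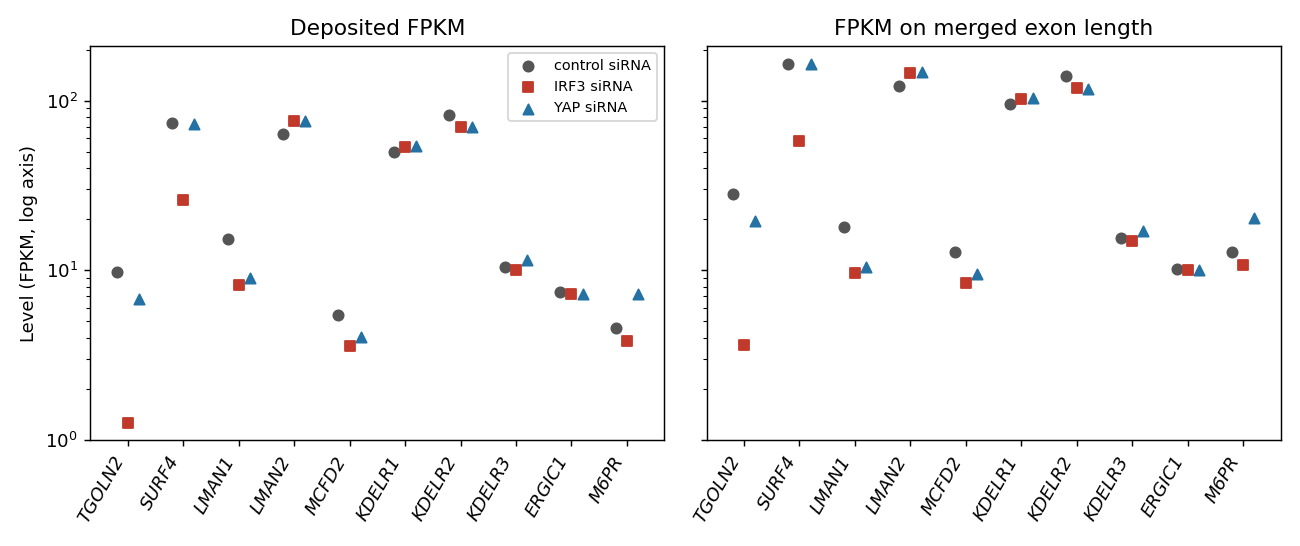
Level of each gene in the 3 libraries, as deposited FPKM (left) and as FPKM on merged exon length (right), on a log axis; each point is 1 library and there are no error bars because each group has 1 library. For TGOLN2 and SURF4 the IRF3 siRNA point lies far below the other points, and the 4 abundant genes SURF4, KDELR2, LMAN2 and KDELR1 stand above the rest.

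IRF3 is a transcription factor of the antiviral response, and the siIRF3 library was first set against the control. TGOLN2 (ENSG00000152291, chromosome 2, 85318020 to 85328425, minus strand, hg38) had 2770 counts in the control, 383 in siIRF3 and 1983 in siYAP, which are 9.80, 1.27 and 6.80 FPKM. The IRF3 siRNA library stood far below the others, and the YAP siRNA library lay between. The count ratio with IRF3 siRNA to control was 0.129 (0.116 to 0.144). On the scale used for calls, the log2 ratio of FPKM plus a pseudocount of 1, the value was -2.25, the 4th lowest of 11103 genes. The pseudocount shrinks this value, as the count ratio alone corresponds to -2.95.

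SURF4 (ENSG00000148248, chromosome 9, 133361449 to 133376166, minus strand), a receptor with several membrane spans that exports soluble cargo such as lipoproteins, had 7912, 2981 and 8143 counts, or 73.3, 25.8 and 73.2 FPKM in the same order. The control and YAP siRNA libraries were alike and the IRF3 siRNA library was the low one. The count ratio to control was 0.352 (0.337 to 0.367) with IRF3 siRNA and 0.998 (0.967 to 1.03) with YAP siRNA. The log2 ratio with IRF3 siRNA was -1.47, the 14th lowest of all genes. Neither TGOLN2 nor SURF4 shares annotated exon sequence with another counted gene.

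TGOLN2 and SURF4 were thus the 2 members called lower by a ratio of at least 2-fold with IRF3 siRNA, and 0 members were called higher. Over all genes 0.612% were called lower and 0.387% higher (68 and 43 genes), and since the set was chosen on these decreases nothing is read from the 2. A further setting, called TMM scaling here, used TMM, a normalization on the trimmed mean of gene ratios. It took CPM, counts scaled by depth but not by gene length, with a pseudocount of 1 CPM. With it 155 genes were lower and 58 higher. Scale and pseudocount changed along with the normalization, so the larger numbers are not assigned to TMM alone. Centring the FPKM ratios on the median gene gave 60 lower and 47 higher. The other 8 members had a median of -0.13, beside -0.03 over all genes, and 6 of the 8 lay below 0, beside 53.9% of all genes. With TMM scaling their median was -0.04, beside 0.06 over all genes, and 4 lay below 0. With a trend in expression level, exon length and GC content removed, the median of the 8 was -0.10, beside -0.02 over all genes. In that setting 7 of the 8 lay below 0. In bulk RNA, fewer cells that express a gene and less RNA per cell cannot be told apart.

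LMAN1 and MCFD2 form the receptor complex that exports coagulation factors V and VIII, LMAN1 as the mannose-binding lectin and MCFD2 as its soluble calcium-binding partner. LMAN1 (ENSG00000074695, chromosome 18, 59327823 to 59359962) had 1687 counts in the control, 968 in siIRF3 and 1021 in siYAP (15.3, 8.21 and 9.0 FPKM). The siIRF3 and siYAP libraries lay below the control and close to each other, and the same held for MCFD2. MCFD2 (ENSG00000180398, chromosome 2, 46901870 to 46941855) had 1067, 749 and 816 counts (5.42, 3.55 and 4.02 FPKM).

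The log2 ratios of LMAN1 were -0.83 in siIRF3 and -0.71 in siYAP, and those of MCFD2 were -0.50 and -0.36, all short of 2-fold. The count ratios of LMAN1 were 0.536 (0.494 to 0.580) and 0.587 (0.542 to 0.635). Per merged exon length, LMAN1 exceeded MCFD2 by a ratio of 1.40 in the control, 1.14 in siIRF3 and 1.11 in siYAP. Ratios to control followed expression level, exon length and GC content over all genes, and that trend accounted for 22.6% of their variance with IRF3 siRNA and 18.7% with YAP siRNA. With it removed, LMAN1 stood at -0.64 and -0.56 and MCFD2 at -0.28 and -0.19. MCFD2 shares 441 exon bases with the antisense gene AC016722.4 (9, 1 and 2 counts) and 154 with TTC7A on the opposite strand (435, 485 and 465 counts), and summed with its overlapping genes it stood at -0.34 and -0.25.

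LMAN2 (VIP36; ENSG00000169223, chromosome 5, 177331562 to 177351852), a lectin of the same family that recycles high-mannose glycoproteins, differed in direction from LMAN1. It had 4030, 5140 and 4967 counts, or 63.3, 75.4 and 75.6 FPKM. The siIRF3 and siYAP libraries were above the control, with a log2 ratio of 0.25 in each and count ratios of 1.19 (1.14 to 1.24) and 1.20 (1.15 to 1.25). With the trend removed these became -0.02 and 0.03. Per merged length LMAN2 exceeded LMAN1 by a ratio of 6.86 in the control, 15.2 in siIRF3 and 13.97 in siYAP.

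The 3 KDEL receptors differed less between libraries. KDELR1 (ENSG00000105438, chromosome 19, 48382570 to 48391553) had 3011 counts in the control, 3450 in siIRF3 and 3359 in siYAP (49.8, 53.3 and 53.8 FPKM). KDELR2 (ENSG00000136240, chromosome 7, 6445953 to 6484242) had 7726, 7052 and 6759 counts (82.1, 70.0 and 69.7 FPKM). Thus KDELR1 was slightly higher and KDELR2 slightly lower in siIRF3 and siYAP, with log2 ratios of 0.10 and 0.11 for KDELR1 and of -0.23 and -0.23 for KDELR2. KDELR1 went to -0.10 and -0.07 with the trend removed, so its direction rests on the scale.

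KDELR3 (ENSG00000100196, chromosome 22, 38468062 to 38483447) had 414, 428 and 473 counts (10.4, 10.03 and 11.5 FPKM). Its count ratios of 0.965 (0.841 to 1.11) with IRF3 siRNA and 1.11 (0.969 to 1.27) with YAP siRNA did not differ from 1 beyond counting error. Per merged length the 3 receptors summed to 250, 236 and 239 FPKM in the same order, so the pool differed little. KDELR2 made up 55.5% of it in the control and 50.2% and 49.4% in siIRF3 and siYAP, while KDELR1 made up 38.3%, 43.5% and 43.5%. KDELR2 shares 376 exon bases with DAGLB, and the summed pair stood at -0.20 and -0.23. KDELR3 shares 8 exon bases with DDX17, an RNA helicase gene that had 3297, 1849 and 1649 counts, so a sum of both genes mostly shows DDX17.

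ERGIC1 (ENSG00000113719, chromosome 5, 172834275 to 172952685), a membrane protein of the ER-Golgi intermediate compartment, had 2017, 2108 and 2032 counts, or 7.46, 7.28 and 7.29 FPKM. The count ratios were 0.976 (0.917 to 1.04) with IRF3 siRNA and 0.977 (0.918 to 1.04) with YAP siRNA. TMM scaling and removal of the trend both turned these small log2 ratios (-0.03 in each) above 0, to 0.07 and 0.06 and to 0.18 and 0.19.

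M6PR (ENSG00000003056, chromosome 12, 8940363 to 8949955), the cation-dependent mannose 6-phosphate receptor, was the member with the highest ratio in the YAP siRNA library. It had 674 counts in the control, 606 in siIRF3 and 1098 in siYAP (4.55, 3.82 and 7.19 FPKM). The YAP siRNA library was the high one and the others lay close together. The count ratio with YAP siRNA was 1.58 (1.43 to 1.74) and with IRF3 siRNA 0.839 (0.751 to 0.938). The log2 ratios were 0.56 and -0.20, and the value with YAP siRNA was the 198th highest of all genes. M6PR shares 1105 exon bases with PHC1 on the opposite strand, and their summed counts gave 0.41 and -0.18. IGF2R, the larger receptor for the same sugar mark, had 10.1, 7.47 and 7.18 FPKM. Per merged length IGF2R stood at 0.699 of the M6PR level in the control, 0.618 in siIRF3 and 0.316 in siYAP.

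**Figure D2:**
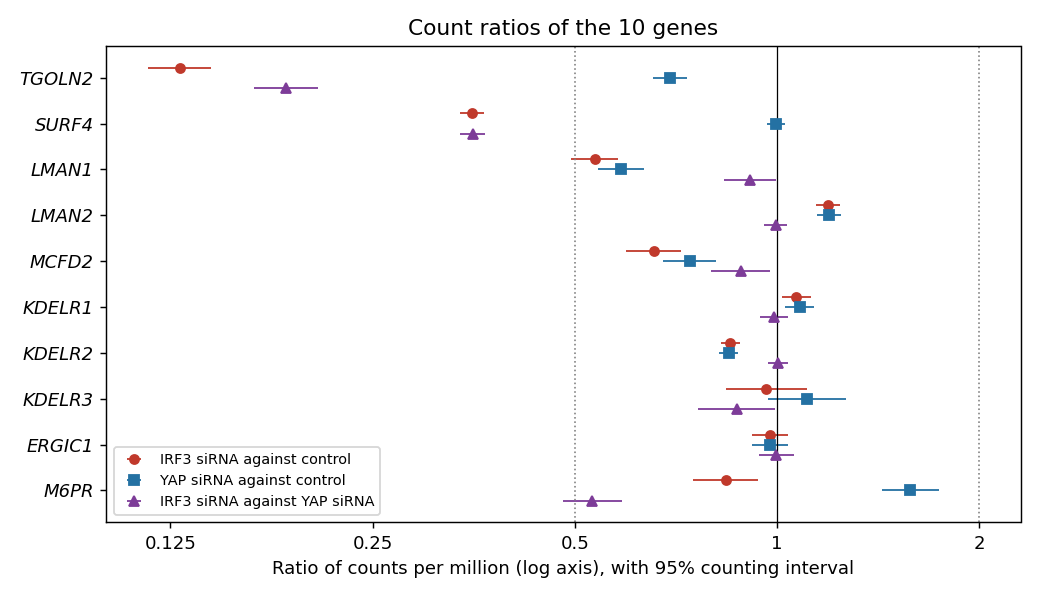
Ratio of depth-scaled counts for each gene in the 3 comparisons, on a log axis; bars are 95% exact counting intervals, which hold no variation between cultures, and dotted lines mark 2-fold. TGOLN2 and SURF4 lie below 0.5 in both comparisons that hold the IRF3 siRNA library, LMAN1 and MCFD2 lie below 1 against control in siIRF3 and siYAP, and M6PR lies above 1 with YAP siRNA.

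YAP is the coactivator restrained by the Hippo pathway, and the siYAP library was set against the same control. No member passed 2-fold, where 0.468% of all genes were called lower and 0.351% higher (52 and 39 genes; 134 and 50 with TMM scaling). The members had a median of -0.02, as all genes had after rounding, or -0.11 with the trend removed and -0.13 with overlapping genes summed. They ranged from -0.71 for LMAN1 to 0.56 for M6PR. TGOLN2 was lower here too, with a count ratio of 0.694 (0.655 to 0.736) and a log2 ratio of -0.47, or -0.32 with the trend removed. Both comparisons with control share 1 control library, so a deviation of that library would enter both.

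IRF3 siRNA was also set directly against YAP siRNA, which leaves the control out. It holds the same siIRF3 library on which the set was chosen, so low values of TGOLN2 and SURF4 here are no second observation. TGOLN2 had a count ratio of 0.186 (0.166 to 0.208) and a log2 ratio of -1.78, and SURF4 had 0.352 (0.338 to 0.368) and -1.47. These were the 8th and 15th lowest values of 11103. TGOLN2 and SURF4 were the 2 members called lower and none was called higher, beside 0.315% and 0.297% of all genes, and nothing is read from the 2. M6PR was next with a count ratio of 0.531 (0.480 to 0.587) and a log2 ratio of -0.76, the 70th lowest. The other 7 members lay between -0.18 (KDELR3) and 0.01 (KDELR2), a range in which LMAN1 stood at -0.12 and MCFD2 at -0.14. In this comparison 85.9% of all genes were within 0.25 of 0.

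**Figure D3:**
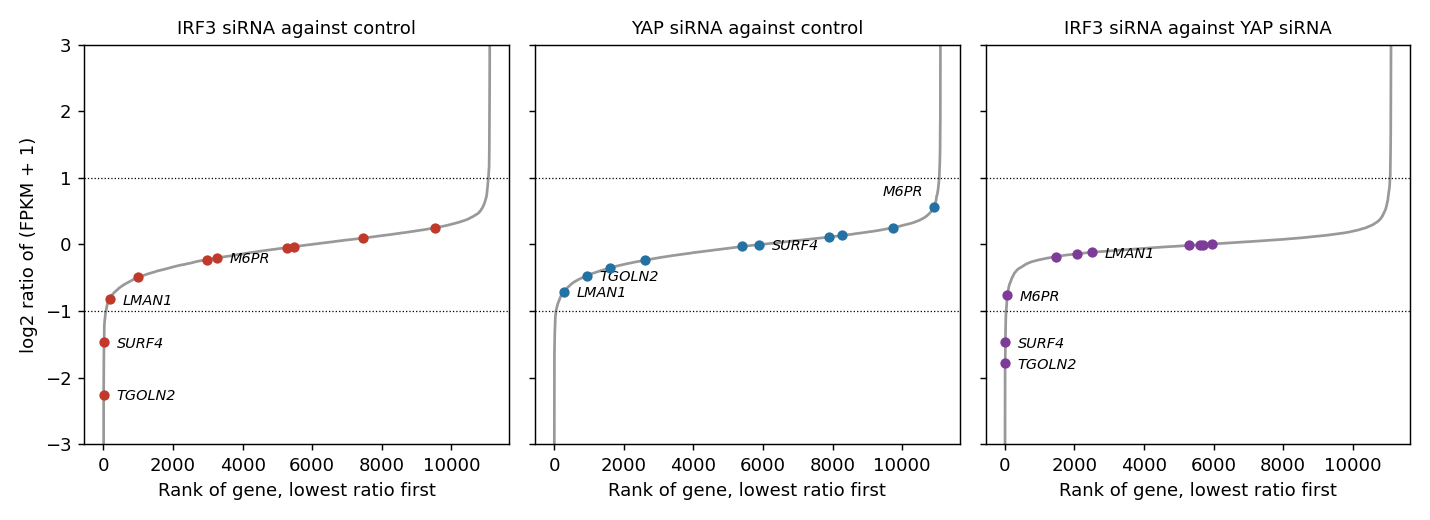
All 11103 genes ordered by log2 ratio of (FPKM + 1) in each comparison (grey line, vertical axis limited to -3 to 3), with the 10 members as points and dotted lines at 2-fold. TGOLN2 and SURF4 lie in the steep lower end in the first and the last panel, while most members lie on the flat part of the line.

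The bases upstream of the members' RefSeq starts were searched, since TGOLN2 and SURF4 were low in the same library. The letters sought are bound by factors named in the study or tied to secretory stress. RefSeq promoters (GRCh38.p14) were at hand for 8 members, in 11 windows of 250 bases before a RefSeq start. Each window overlapped the GENCODE span of its own gene, so not all of these bases are upstream of the gene as annotated there. Between 0 and 250 bases of a window lay in annotated exons of the same gene. All 250 did for TGOLN2, LMAN1 and 1 window of M6PR, and 106 did for SURF4. Both strands were searched. GAAANNGAA, the core read by interferon regulatory factors, was in no member window and in 6.88% of 35116 windows of all genes. GGAATG, read by the TEAD partners of YAP, was in the windows of 1 member, MCFD2, and in 11.9% of all. ACGTGGC, an element of the Golgi stress response, was in those of SURF4 and KDELR3 and in 2.78% of all. TGACGTGG, an unfolded protein response element, was in that of KDELR3 and in 0.612% of all. The ER stress element, CCAAT and CCACG held 9 bases apart, was in no member window and in 0.074% of all. The matches are shown within 30 bases, with the matched letters in capitals and read on the gene's strand.
SURF4: aaggcttggcctACGTGGCagccgctggag
KDELR3: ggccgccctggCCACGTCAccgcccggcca
MCFD2: agaaggaattagCATTCCtattatctttct
They lie at chr9:133376096-133376125, chr22:38468039-38468068 and chr2:46916213-46916242. The SURF4 and MCFD2 matches are inside the GENCODE span of their own gene. The KDELR3 match lies on the opposite strand and overlaps its ACGTGGC match, and the MCFD2 match is also on the opposite strand. A match is a description of letters, and a missing match says only that they are not in this window.

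The rest of the pathway was read through 7 lists of genes taken from textbook roles, in which IRF3 siRNA is given first. Of the 123 genes kept over the lists, 1 was called in any comparison, and it was lower with IRF3 siRNA. Over all genes 0.612% were called lower and 0.387% higher with IRF3 siRNA, and 0.468% and 0.351% with YAP siRNA. Between IRF3 siRNA and YAP siRNA these shares were 0.315% and 0.297%. The listed gene was CLTC, the clathrin heavy chain, at -1.03 and -0.86 (11.8, 5.28 and 6.05 FPKM). CLTC shares exon sequence with other genes, and its summed counts gave -0.75 and -0.54. The same call was lost with the trend removed (-0.73). Other settings added calls with IRF3 siRNA: CPD, a carboxypeptidase of the trans-Golgi network, at -1.11 with a pseudocount of 0.1 and at -1.02 with TMM scaling, and EHD1 at 1.08 with TMM scaling.

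Among other cargo receptors and adaptors of ER exit, 13 of 18 genes were kept and none was called, with medians of 0.13 and 0.09. These were 0.03 and 0.01 with the trend removed. With TMM scaling they were 0.26 and 0.19, beside 0.06 and 0.06 over all genes. CNIH1, a cornichon that exports growth factor precursors, came closest to the pattern of SURF4 within this list: it had 16.1 FPKM in the control, 9.06 in siIRF3 and 15.1 in siYAP, with log2 ratios of -0.77 and -0.09. MIA3 (TANGO1), which exports procollagen, was low in both (2.40, 1.17 and 1.20 FPKM; -0.65 and -0.63). YIF1A was the highest of the list at 0.35 and 0.22.

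The chaperones and folding enzymes of the ER lumen include many that carry the KDEL-type tail read by KDELR1, KDELR2 and KDELR3. Of 25 genes 24 were kept, none was called, and the medians were 0.04 and 0.07. HSP90B1 had the lowest value with IRF3 siRNA (-0.56) and HYOU1 the highest (0.41). With YAP siRNA TXNDC5, a protein disulfide isomerase, was lowest at -0.83, from 72.4 FPKM in the control, 66.4 in siIRF3 and 40.3 in siYAP, and PPIB was highest at 0.33. Genes of the unfolded protein response (15 of 16 kept, none called) had medians of -0.15 and -0.10, with SEL1L lowest at -0.84 and -0.74. CREB3 was highest with IRF3 siRNA (0.23) and SEC61B with YAP siRNA (0.22).

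At the trans-Golgi network, 21 of 26 sorting genes were kept, with medians of -0.04 and -0.07. With TMM scaling they were 0.06 and 0.01, beside 0.06 and 0.06 over all genes. AP1M1 had the highest value with IRF3 siRNA (0.38) and AP1B1 with YAP siRNA (0.28). For retrieval to that network 26 of 29 genes were kept, none was called (1, EHD1, with TMM scaling), and the medians were -0.08 and -0.07. EHD1, which drives membrane recycling from endosomes, was highest in both at 0.84 and 0.68 (3.95, 7.86 and 6.91 FPKM), while STX16 (-0.56) and STX6 (-0.58) were lowest in siIRF3 and siYAP respectively.

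Golgi structure and enzyme genes lay lowest of the 7 lists: 14 of 18 were kept and none was called. Of the 14, 12 were below 0 in each of siIRF3 and siYAP, beside 53.9% and 53.4% of all genes. Their medians were -0.32 and -0.26, beside -0.03 and -0.02 over all genes, and -0.26 and -0.23 once the trend was removed. With TMM scaling they were -0.24 and -0.19, beside 0.06 and 0.06 over all genes. GOLIM4, a Golgi protein that cycles to endosomes as TGOLN2 does, was lowest at -0.80 and -0.65 (11.2, 6.03 and 6.78 FPKM), and MGAT1 was highest at 0.24 and 0.07. Secreted and lysosomal cargo had 10 of 16 genes kept, none called, and medians of 0.10 and 0.07. NUCB1 (-0.29) and LGALS3BP (-0.67) were lowest in siIRF3 and siYAP respectively, and CTSD was highest in siIRF3 (0.26). APOB, F5, F8 and SERPINA1, textbook cargo of SURF4 and of the LMAN1 complex, were all below 1 FPKM on average in these cells. With the trend removed, small list medians changed sign, to 0.02 in each of siIRF3 and siYAP for retrieval, to -0.01 in each for cargo and to -0.04 in siIRF3 for the ER chaperones.

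**Figure D4:**
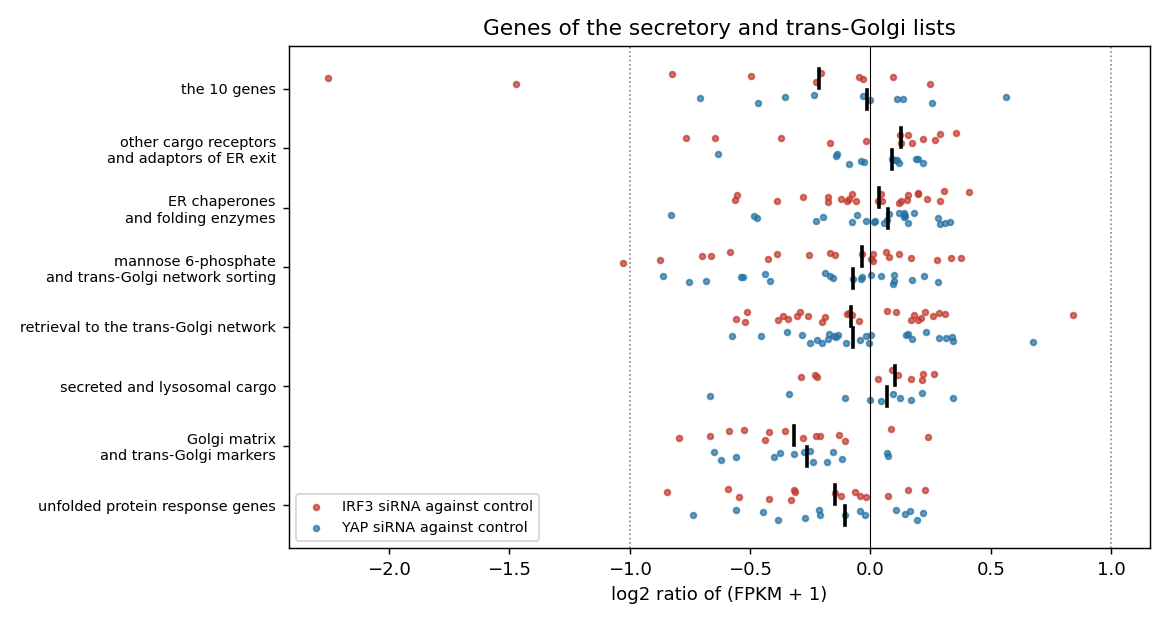
Log2 ratio of (FPKM + 1) against control for the 10 genes and for the kept genes of 7 lists, with IRF3 siRNA in red and YAP siRNA in blue; each point is 1 gene (shifted slightly up or down for legibility), black bars are medians and dotted lines mark 2-fold. TGOLN2 and SURF4 lie apart on the left, and the Golgi list has the lowest list medians at -0.32 and -0.26.

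The genes nearest in pattern were sought among 5065 genes with a mean of at least 5 FPKM, by the distance between their pairs of log2 ratios to control; with 3 libraries this is a description only. For SURF4 they were C9orf69 (distance 0.11; 12.3, 3.68 and 11.4 FPKM), LIPA, the lysosomal acid lipase (0.18; 33.5, 13.0 and 34.8 FPKM, with overlapping exons), and CORO1C, an actin-binding coronin (0.37; 11.6, 4.27 and 9.22 FPKM). TGOLN2 had no close neighbour: SRRM2 (0.52), C9orf69 (0.83) and SURF4 itself (0.91) were the nearest. SRRM2 had 14.8, 3.77 and 10.8 FPKM and shares exon sequence with other genes, with which its summed value with IRF3 siRNA was -1.04.

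Genes that start beside the members were read as well. STKLD1 starts 201 bases from the annotated start of SURF4 on the opposite strand and had 57, 40 and 54 counts, under 1 FPKM in each library. DAGLB, which starts 52 bases from KDELR2, had 779, 853 and 703 counts, and KLRG1, which starts 89 bases from M6PR, had 7, 8 and 5.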

How the data were processed

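RNA sequencing of 3 libraries was analysed, 1 per group. The deposited table holds raw counts and FPKM per gene, per the file headers. Reads were aligned with TopHat2 2.0.9 to hg38, per the submitters' processing notes. No counter, annotation release or strand setting is given in the sources at hand. The authors' FPKM were used as deposited. Genes with a mean of at least 1 FPKM were kept, ratios were taken as log2 of FPKM plus a pseudocount of 1, and genes were called at 2-fold. Count ratios between libraries, scaled by the column totals, carry exact (Clopper-Pearson) 95% intervals. Without molecular identifiers, duplicate reads from PCR inflate the counts, and the intervals hold counting error only. With 1 library per group no test was made.

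The members, lists and rules were chosen with earlier results of these data known. Genes were named by rule: all members, IRF3 and YAP1, markers, list genes past 2-fold or with the highest or lowest ratio to control, the 3 genes nearest in pattern to TGOLN2 and to SURF4, and genes that overlap a member or start within 2000 bases of it. IGF2R, the textbook cargo genes and the neighbours of SURF4 in its gene cluster fall outside this rule. Exon lengths, GC content and overlaps came from GENCODE release 29 (11066 genes with all values); the trend was an additive spline with 4 degrees of freedom per term. TMM factors came from edgeR 4.0.16 in R 4.3.3, used for no test, and intervals from scipy 1.17.1. The trend used patsy 1.0.2 with pandas 2.3.3 and numpy 2.4.6, and plots matplotlib 3.10.9, in Python 3.11.15. Some list genes are not reported here.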

Additional observations from a re-analysis of the deposited data

How the results depend on the processing

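No paired analysis was possible because each group has 1 library, and for the same reason no replicate could be left out. With IRF3 siRNA, against control and against YAP siRNA, TGOLN2 and SURF4 were called and no other member was, under 8 of the 9 alternatives; at 3-fold 1 was left in each comparison, TGOLN2. The filter of 5 FPKM removed MCFD2. Of 237 member values under alternatives, 0 called values reversed and 16 uncalled ones changed sign. From the main value, 37 moved by more than the margin of the counting interval, the log2 distance from its middle to its end. The widest such change was KDELR3 with YAP siRNA, from 0.14 to -0.84 when summed with DDX17. The counts over all genes depended more on the setting. Against control, 111 genes were called with IRF3 siRNA and 91 with YAP siRNA. These became 380 and 346 with a pseudocount of 0.1, 41 and 36 with a filter of 5 FPKM, 213 and 184 with TMM-scaled CPM, and 25 and 17 at 3-fold. The 68 calls of IRF3 siRNA against YAP siRNA became 163 with that pseudocount, 27 with that filter, 31 at 3-fold and 31 with overlapping genes summed. The median of the members with IRF3 siRNA (-0.22) became -0.14 with TMM-scaled CPM, -0.15 with the trend removed and -0.27 with overlapping genes summed. With YAP siRNA (-0.02) it became 0.071, -0.11 and -0.13 under the same settings. The median over all genes rose as well with TMM-scaled CPM, from -0.03 to 0.06 with IRF3 siRNA and from -0.02 to 0.06 with YAP siRNA. FPKM on merged exon length, chosen after seeing the data, changed no call of a member. For the targeted genes, removal of the trend took YAP1 with YAP siRNA from -1.09, which is past 2-fold, to -0.90. It took YAP1 with IRF3 siRNA from -0.59 to -0.35, and IRF3 with IRF3 siRNA from -0.22 to -0.30.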

Other observations

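SURF4 lies in the surfeit cluster of chromosome 9, and 5 of its neighbours there were picked after their values were seen. SURF1 had 666, 965 and 965 counts for the control, siIRF3 and siYAP, SURF2 had 219, 322 and 267, SURF6 had 453, 517 and 522, and the ribosomal protein gene RPL7A had 23157, 26974 and 26575. Their log2 ratios with IRF3 siRNA lay between 0.08 for SURF6 and 0.42 for SURF1 and SURF2, where SURF4 stood at -1.47. MED22, a Mediator subunit of the same cluster, was low in siIRF3 and siYAP, with 723, 167 and 153 counts and count ratios of 0.216 (0.181 to 0.256) and 0.205 (0.171 to 0.245).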
